A study of Mus musculus with 30 samples.

Results

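The mouse Hox cluster genes were examined as every row of the deposited gene table whose symbol reads Hox, then a cluster letter from a to d, then a paralogue number. This rule found 39 of 23060 symbols: 11 in HoxA, 10 in HoxB, 9 in HoxC and 9 in HoxD. Antisense and other transcripts of the clusters were left out of the members and are described separately. The rule used no measured value.

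Hox genes encode homeodomain transcription factors that stand in 4 chromosomal clusters, and genes at the same place in different clusters are paralogues with closely related proteins. Their proteins bind DNA together with PBX and MEIS partners, MLL-type histone methyltransferases keep the clusters active, and polycomb complexes keep them silent. In blood formation many HoxA and HoxB genes are expressed in stem and progenitor cells and are shut down as the cells mature, and Hoxa9 with its partner Meis1 is a well-known driver of leukaemia.

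The study converted adult mouse endothelium to blood-forming cells and measured RNA by sequencing in 30 libraries of sorted mouse cells, as FPKM (fragments scaled to transcript length and to the number of mapped fragments). FPKM is scaled by transcript length, so levels of different genes can be set side by side. Control LKS-SLAM cells came from wild type bone marrow (3 libraries). They are lineage-negative, Sca1+ and Kit+ marrow cells further sorted on SLAM receptors, a fraction rich in haematopoietic stem cells. rEC LKS-SLAM cells had the same phenotype and came from bone marrow, with the genotype given as derived (3 libraries), that is, descended from reprogrammed endothelial cells. Library 2 of this group came from 1 clone, 47G1, in a primary recipient, and library 3 from a secondary recipient, so the 3 libraries are not alike in origin. FGRS KLS cells, also given as derived, were adherent Kit+ Sca1+ lineage-negative cells (3 libraries). They were taken from culture on human umbilical vein endothelial cells at day 28, and their titles name no SLAM sort. FGRS names the conversion factors Fosb, Gfi1, Runx1 and Spi1. Blood gave Gr1+ Cd11b+ myeloid cells (2 control and 2 rEC libraries), CD4 T cells (2 control and 2 rEC), CD8 T cells (3 control and 3 rEC) and B cells sorted on B220 (3 control and 3 rEC), with wild type controls. The rEC blood libraries are not alike in origin either. B library 2 came from clone 47G1 in a primary recipient. B library 3, CD4 library 2 and CD8 libraries 2 and 3 came from secondary recipients. Blood and marrow cells were freshly isolated. The labels do not say that replicates came from separate animals, so p-values measure the spread between libraries, which may be technical. No cultured wild type cells are among the groups, so between FGRS and control LKS-SLAM cells culture, origin and the SLAM sort cannot be told apart. Between FGRS and rEC LKS-SLAM cells the SLAM sort differs as well.

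Across the 29 grouped libraries, relative sequencing depth ranged from 0.588 to 1.13 of a reference B cell library, and 10165 to 12550 genes reached 1 FPKM. Depth in counts is unknown from FPKM, so no counting interval is given. Sorted B, T and myeloid libraries carried their own markers. In B cell library 1 of rEC origin the 4 T cell markers summed to 678 FPKM against 1.02 to 2.203 in the other B cell libraries of both origins. Control CD8 T cell libraries 1, 2 and 3 had B cell marker sums of 469, 304 and 197 FPKM and myeloid marker sums of 162, 694 and 84.0 FPKM, against 6.74 to 61.8 and 0.722 to 16.9 in rEC CD8 libraries. Among LKS-SLAM libraries the 8 stem cell markers summed to 581 to 644 FPKM in controls, and to 878, 134 and 915 FPKM in rEC libraries 1, 2 and 3. Library 2 of the rEC LKS-SLAM group also had an erythroid marker sum of 2222 FPKM, against 73.8 to 338 in controls. FGRS KLS libraries 1, 2 and 3 had stem cell marker sums of 177, 136 and 121 FPKM and macrophage marker sums of 420, 3664 and 3260 FPKM, against macrophage sums of 7.15 to 51.8 in control LKS-SLAM cells. Control LKS-SLAM libraries 1 and 2 had eosinophil marker sums of 2253 and 4166 FPKM, and library 3 had 33.3. These libraries were bulk samples, in which fewer cells of a type and less RNA per cell cannot be told apart.

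The 250 bases before the RefSeq start (GRCm38.p6) are shown for 4 members. They were chosen because Hoxa9 had the highest level, Hoxb4 was detected in every library, and Hoxb8 and Hoxa5 kept small shares of their level in the cultured cells. The stretches are chr6:52204588-52204837 on the minus strand (Hoxa5), chr6:52227371-52227620 on the minus strand (Hoxa9), chr11:96318017-96318266 on the plus strand (Hoxb4) and chr11:96281655-96281904 on the plus strand (Hoxb8). Each is written 5′ to 3′ along the gene. The Hoxa5 stretch lies within the longer gene spans of Hoxa3, Hoxaas3 and Gm28308, and that of Hoxa9 within a longer Hoxa9 model. Capitals mark matches on either strand to the TATA box (TATAAA), the CCAAT box (CCAAT), the E-box (CACGTG), the paired HOX and PBX motif (TGATTNAT) and the GC box (GGGCGG).
Hoxa5: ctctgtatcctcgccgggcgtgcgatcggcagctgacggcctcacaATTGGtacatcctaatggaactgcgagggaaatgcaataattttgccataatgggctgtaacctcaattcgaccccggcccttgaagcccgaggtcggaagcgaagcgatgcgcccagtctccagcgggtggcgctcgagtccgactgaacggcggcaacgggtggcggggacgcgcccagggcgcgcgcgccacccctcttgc
Hoxa9: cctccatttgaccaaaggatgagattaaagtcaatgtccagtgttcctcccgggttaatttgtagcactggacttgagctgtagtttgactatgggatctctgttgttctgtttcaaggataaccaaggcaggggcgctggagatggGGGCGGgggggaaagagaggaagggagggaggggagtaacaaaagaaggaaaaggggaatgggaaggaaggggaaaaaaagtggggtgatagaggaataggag
Hoxb4: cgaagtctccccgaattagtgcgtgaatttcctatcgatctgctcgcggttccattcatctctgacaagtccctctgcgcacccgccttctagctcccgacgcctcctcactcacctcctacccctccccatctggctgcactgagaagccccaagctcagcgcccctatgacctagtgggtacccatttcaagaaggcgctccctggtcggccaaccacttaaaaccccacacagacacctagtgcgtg
Hoxb8: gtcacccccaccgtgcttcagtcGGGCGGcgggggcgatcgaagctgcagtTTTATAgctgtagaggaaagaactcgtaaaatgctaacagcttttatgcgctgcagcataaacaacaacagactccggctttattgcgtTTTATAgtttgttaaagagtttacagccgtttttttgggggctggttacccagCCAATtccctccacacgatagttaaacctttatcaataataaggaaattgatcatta
The Hoxa5 stretch held a CCAAT match and the Hoxa9 stretch a GGGCGG match. The Hoxb8 stretch held 2 TATAAA matches with a CCAAT and a GGGCGG match, and none of the 5 motifs was in the Hoxb4 stretch. RefSeq gave 24 promoter windows for members, each with these bases and 50 after the start. TATAAA was in 4 of these 24 and in 13.6% of all 32851 promoters, and CCAAT in 15 and 37.4%. CACGTG was in 5 and 7.15%, TGATTNAT in 2 and 3.22%, and GGGCGG in 10 and 35.7%. Median GC content was 57.7% in the Hox windows and 52.7% in all, and the median number of CpG pairs was 14.5 and 7. These matches are descriptions of sequence, with no test.

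In control LKS-SLAM cells 16 of 39 members had a mean of at least 1 FPKM, 8 of them in HoxA and 8 in HoxB. Hoxa9, the member best known from stem cell renewal and leukaemia, had the highest level, at 42.1, 43.0 and 41.9 FPKM in libraries 1, 2 and 3. Hoxa5, known from erythroid and myeloid lineage choice, had 36.5, 36.3 and 31.0 FPKM. Hoxa6 had 29.01, 26.2 and 20.99 FPKM. These 3 genes were the highest members in each control library. Hoxa7, raised together with Hoxa9 in MLL-rearranged leukaemia, had 19.7, 19.0 and 11.5 FPKM. Hoxa10, a regulator of myeloid progenitors, had 20.2, 16.4 and 13.3 FPKM, and Hoxa3, needed for thymus formation in the embryo, had 8.19, 9.69 and 7.13 FPKM. Hoxa7 and Hoxa10 overlapped across libraries, and Hoxa3 lay below both. Hoxa2, a hindbrain and face patterning gene, averaged 3.40 ± 1.45 FPKM (SD, n = 3) and Hoxa4 averaged 1.57 ± 0.37 (SD, n = 3).

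HoxB means in the same cells ran from 1.56 to 14.7 FPKM, a narrower range than the 1.57 to 42.3 FPKM of the 8 HoxA genes. HoxA means were the higher ones for paralogue numbers 5, 6, 7 and 9, and HoxB means for 2, 3 and 4. Hoxb3, the highest of them by mean, had 18.2, 15.0 and 10.7 FPKM. Hoxb2, a hindbrain patterning gene, had 9.87, 8.34 and 9.38 FPKM. Hoxb4, used to expand stem cells in culture by overexpression, had 10.8, 7.61 and 8.58 FPKM, so Hoxb2 and Hoxb4 overlapped. Hoxb5, a marker of long-term stem cells, had 7.96, 6.70 and 5.12 FPKM. Hoxb6, which expands immature blood cells when overexpressed, had 7.55, 6.95 and 4.82 FPKM. Hoxb8, which holds myeloid progenitors immature when overexpressed, had 4.36, 3.45 and 3.89 FPKM, below every value of Hoxb5 and Hoxb6. Means of the remaining pair were 2.12 ± 0.37 FPKM for Hoxb9 and 1.56 ± 0.58 for Hoxb7 (SD, n = 3).

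The detected members formed uninterrupted runs along both clusters. The stretch from Hoxa2 to Hoxa10 lies at chr6:52162417-52240854 on the minus strand, and HoxB at chr11:96194316-96368256 on the plus strand (GENCODE M21, GRCm38). From Hoxa2 to Hoxa10 each HoxA member had a control mean of at least 1 FPKM. The next gene, Hoxa11, is separated from Hoxa10 by 1251 bases and had a mean of 0.0395 FPKM against 16.6. From Hoxb9 to Hoxb2 each HoxB member also passed 1 FPKM. Hoxb1, a hindbrain gene 11739 bases beyond Hoxb2, and Hoxb13, a tail-end and prostate gene 74009 bases before Hoxb9, were listed at 0 in all 3 control LKS-SLAM libraries.

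HoxC and HoxD were near or at 0. Of the 9 HoxC members, 3 reached 1 FPKM in at least 1 of the 29 libraries, namely Hoxc4, Hoxc6 and Hoxc9. Hoxc6 had 0.625, 0.364 and 0.827 FPKM in control LKS-SLAM cells and 1.11, 0.317 and 1.97 in rEC LKS-SLAM cells. Hoxc4 was highest in rEC LKS-SLAM library 3, at 1.78 FPKM. The highest HoxD value in any library was 0.396 FPKM, for Hoxd8 in control LKS-SLAM library 2. Hoxa13, Hoxd3 and Hoxd12 were listed at 0 in all libraries. In all, 19 members reached 1 FPKM in at least 1 library, and the other 20 did not.

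**Figure D1:**
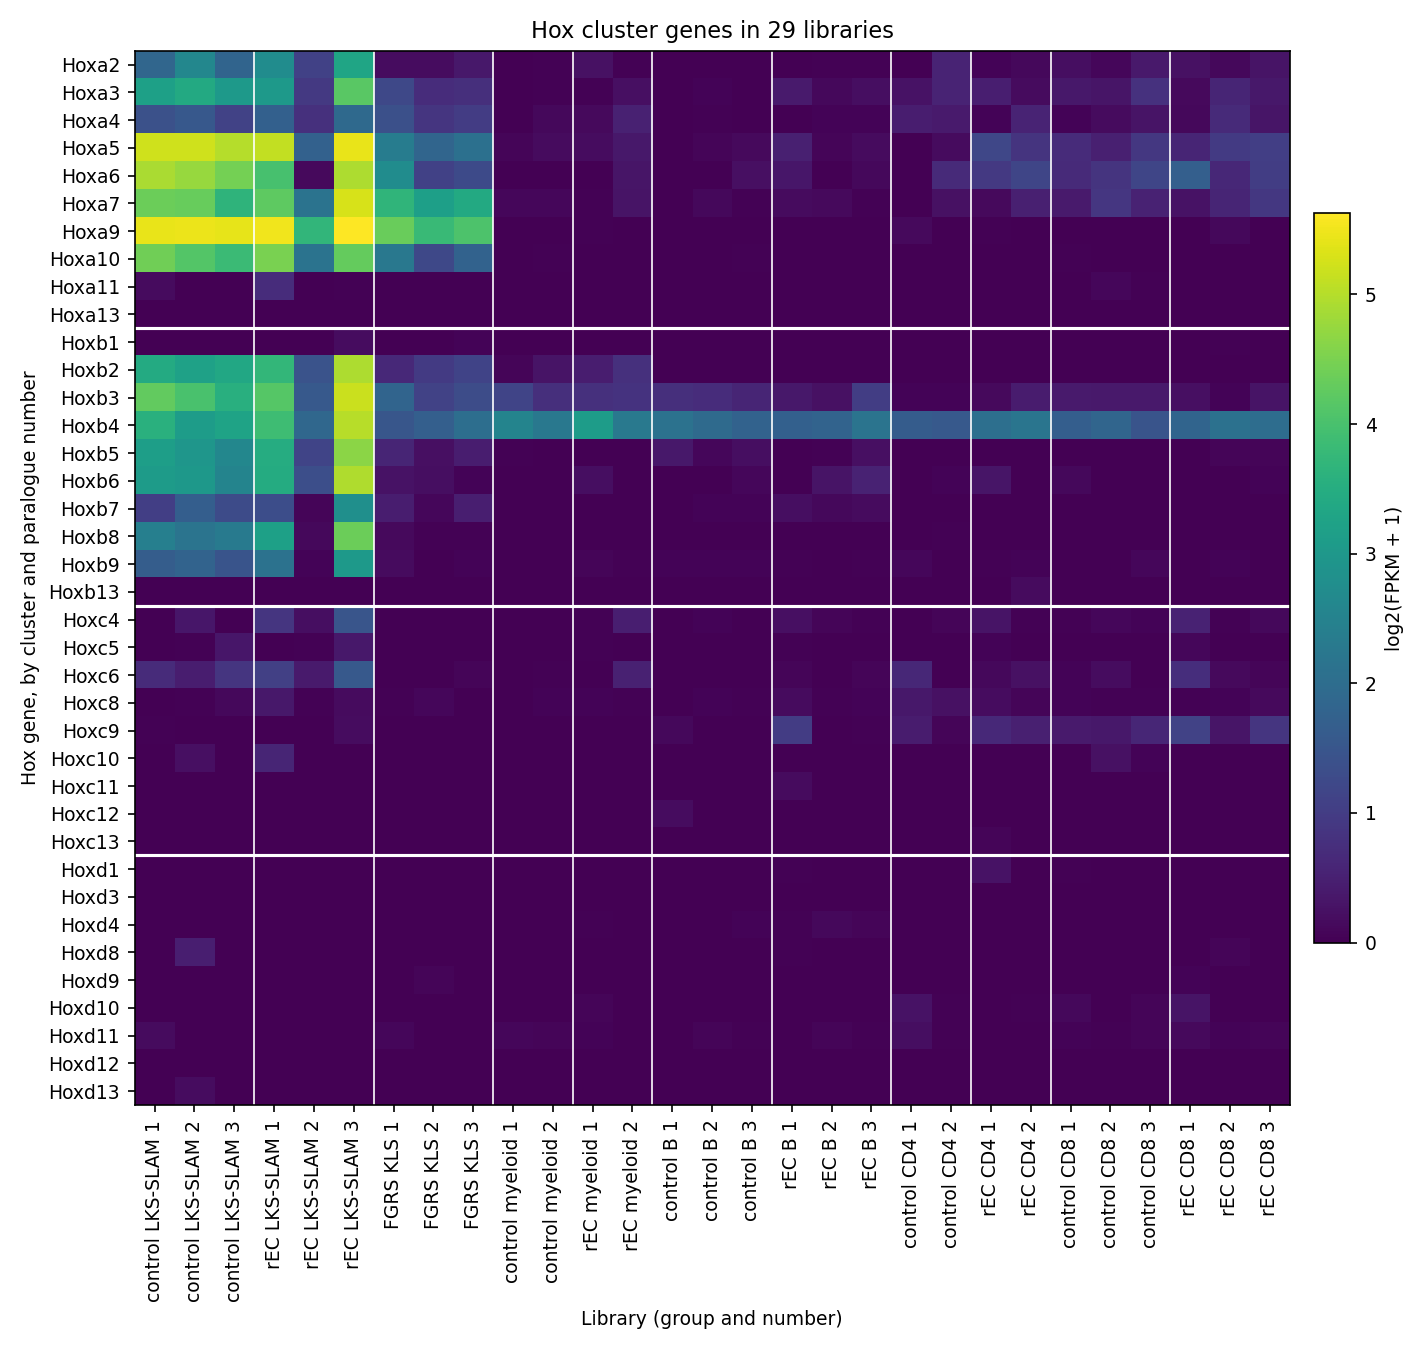
Level of the Hox members, 1 left out (rows, by cluster and paralogue number), in 29 libraries (columns), as log2(FPKM + 1) in colour. The bright block is HoxA and HoxB in the LKS-SLAM libraries, with rEC LKS-SLAM library 2 and the 3 FGRS KLS libraries dimmer, and Hoxb4 is the member above 1 FPKM in all 29 libraries.

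Members were tested with limma on log2(FPKM + 1) over all 14083 genes that reached 1 FPKM in at least 2 libraries, adjusted by Benjamini-Hochberg and called at 0.05. Of the 39 members 18 passed this filter (Hoxa2 to Hoxa7, Hoxa9, Hoxa10, Hoxb2 to Hoxb9, Hoxc6 and Hoxc9), and the other 21 count as not called. Of the 18, 13 would not have passed it on blood libraries alone. Hoxa5, Hoxa6, Hoxb3, Hoxb4 and Hoxc9 reached 1 FPKM in 2 blood libraries. Members thus mostly passed through the cells in which they are high, so counts of calls against those cells describe the members and are not read as evidence about the set. A difference on this scale understates the change of low genes. The library preparation did not keep strand, so reads of Hoxa3, Hoxa4, Hoxa7, Hoxb2, Hoxb3 and Hoxb5 cannot be told apart from those of antisense transcripts that share exon bases with them. Hoxa2 and Hoxa3 share exon bases with Gm28308 on the same strand, and Hoxa9 with Mir196b. Values of these genes are uncertain to that extent.

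In cultured FGRS KLS cells 15 of 39 members fell against control LKS-SLAM cells and none rose. Of all genes tested 31.7% fell and 17.1% rose. With untested genes counted as not called on both sides, 38.5% of the members fell, beside 19.3% of all 23060 symbols. This comparison asks how near the cultured cells, before transplantation, were to native stem cells.

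Among HoxA genes the fall was uneven. Hoxa9 had 19.3, 13.1 and 15.6 FPKM in FGRS libraries 1, 2 and 3, each below the lowest control. On the log2 scale it fell by 1.37 ± 0.30 (SE), with a limma adjusted p of 0.000795, and kept 37.8% of the control mean. Hoxa5 had 4.16, 2.56 and 3.23 FPKM and fell by 3.06 ± 0.54 (adjusted p = 0.000109). Its FGRS mean was 9.59% of the control mean, and the groups did not overlap. Hoxa6 had 5.67, 1.12 and 1.42 FPKM and fell by 3.01 ± 0.70 (adjusted p = 0.00149). Hoxa10 had 3.79, 1.33 and 2.42 FPKM and fell by 2.37 ± 0.37 (adjusted p = 3.48e-05). Library 1 was the highest of the FGRS libraries for Hoxa5, Hoxa6, Hoxa9 and Hoxa10. Hoxa3 had 1.33, 0.641 and 0.694 FPKM and fell by 2.32 ± 0.45 (adjusted p = 0.000269). Hoxa2 was at 0.140 to 0.292 FPKM and fell by 1.84 ± 0.34 (adjusted p = 0.000167).

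Hoxa7 and Hoxa4 did not pass the test. Hoxa7 had 11.8, 8.07 and 9.65 FPKM, 58.8% of the control mean, and FGRS library 1 lay above control library 3. Its difference was -0.69 ± 0.45 (adjusted p = 0.208). Hoxa4 had 1.60, 0.830 and 1.01 FPKM, 73.1% of the control mean, with a difference of -0.26 ± 0.23 (adjusted p = 0.357). These groups overlapped too.

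Every HoxB gene of the detected run fell in FGRS cells. Hoxb8 had 0.1102, 0.02998 and 0.0289 FPKM, 1.45% of the control mean, the lowest share of the 16 detected genes. It fell by 2.21 ± 0.55 (adjusted p = 0.00261). Hoxb6 had 0.206, 0.164 and 0.0315 FPKM and fell by 2.70 ± 0.47 (adjusted p = 0.000111). Both genes were near 0 in all 3 FGRS libraries and well above that in all 3 controls. Hoxb5 had 0.4998, 0.173 and 0.375 FPKM and fell by 2.48 ± 0.46 (adjusted p = 0.000195). Hoxb2 had 0.567, 0.925 and 1.19 FPKM and fell by 2.44 ± 0.46 (adjusted p = 0.000225). Hoxb3 had 2.51, 1.16 and 1.49 FPKM and fell by 2.53 ± 0.51 (adjusted p = 0.000380). Hoxb4 kept the largest share of the HoxB genes, with 1.84, 2.28 and 3.09 FPKM, 26.7% of the control mean. It fell by 1.56 ± 0.44 (adjusted p = 0.00626), and its FGRS values lay below every control. Hoxb9 fell by 1.55 ± 0.40 (adjusted p = 0.002995) and Hoxb7 by 0.99 ± 0.37 (adjusted p = 0.0297). Hoxc6 fell by 0.65 ± 0.23 (adjusted p = 0.0251).

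Hoxb7 lost its call without control library 2, control library 3 or FGRS library 2, and Hoxc6 without control library 1 or 3 or FGRS library 1 or 2, which brought the count down to 13 at the lowest. Under quantile normalization Hoxb7, Hoxb9 and Hoxc6 were not called.

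**Figure D2:**
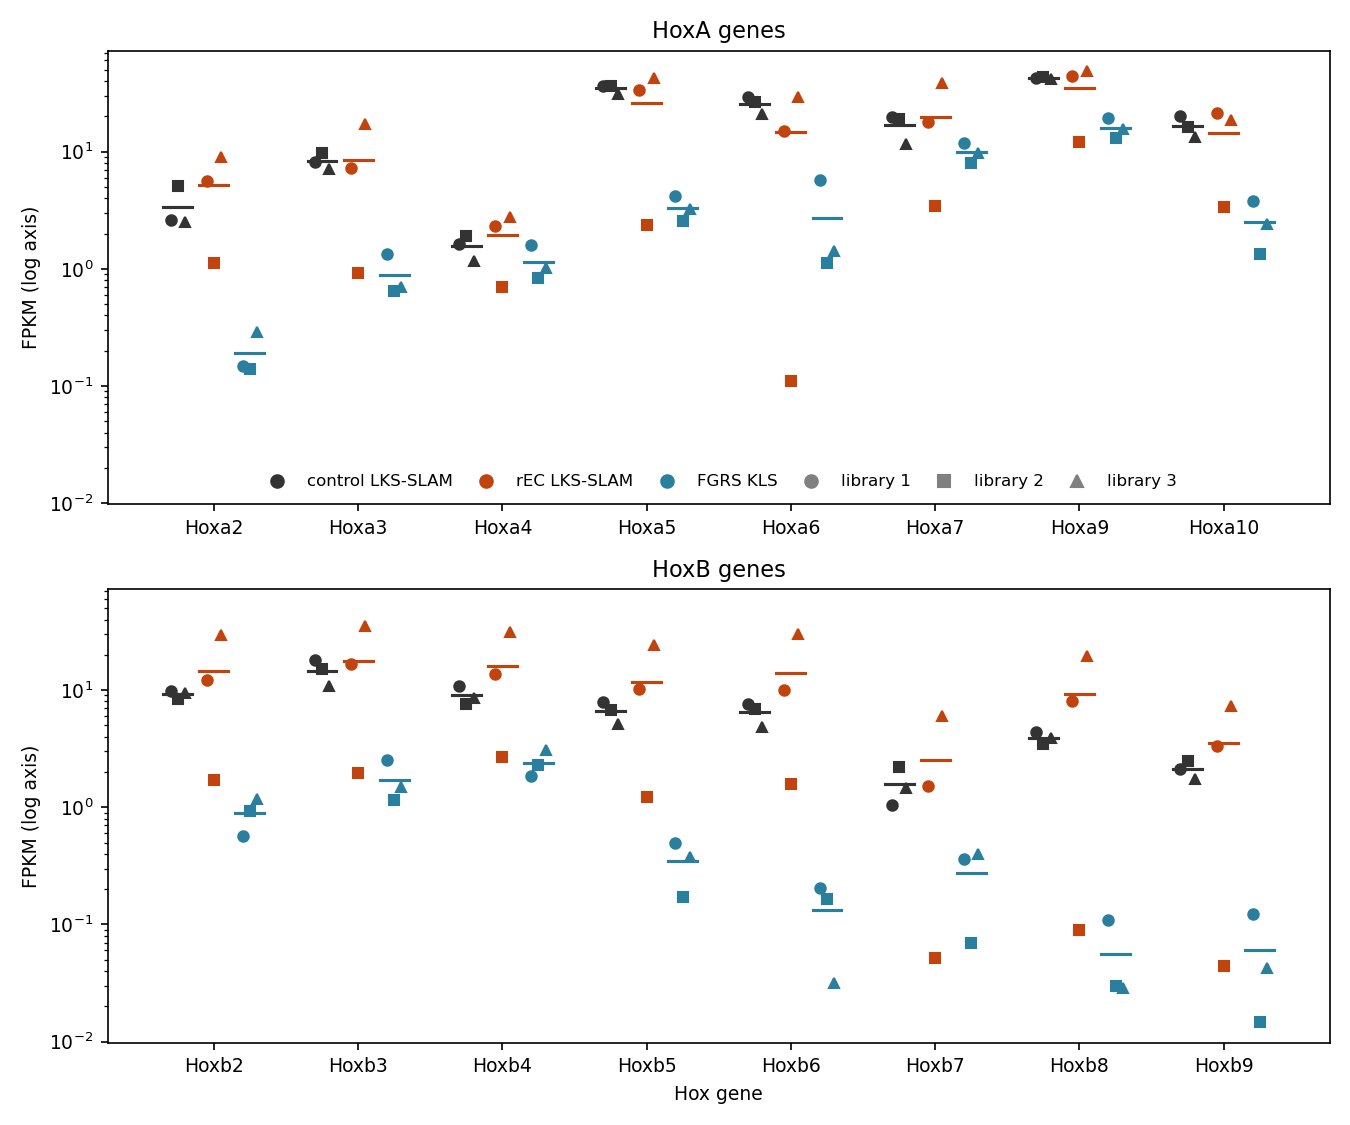
FPKM on a log axis of the 8 HoxA (top) and 8 HoxB genes (bottom) with a control mean of at least 1 FPKM, in each control LKS-SLAM, rEC LKS-SLAM and FGRS KLS library, with a bar at each group mean. FGRS values lie below all controls except for Hoxa4 and Hoxa7, and rEC library 2 (square) lies below all controls for each of the 16 genes.

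**Figure D3:**
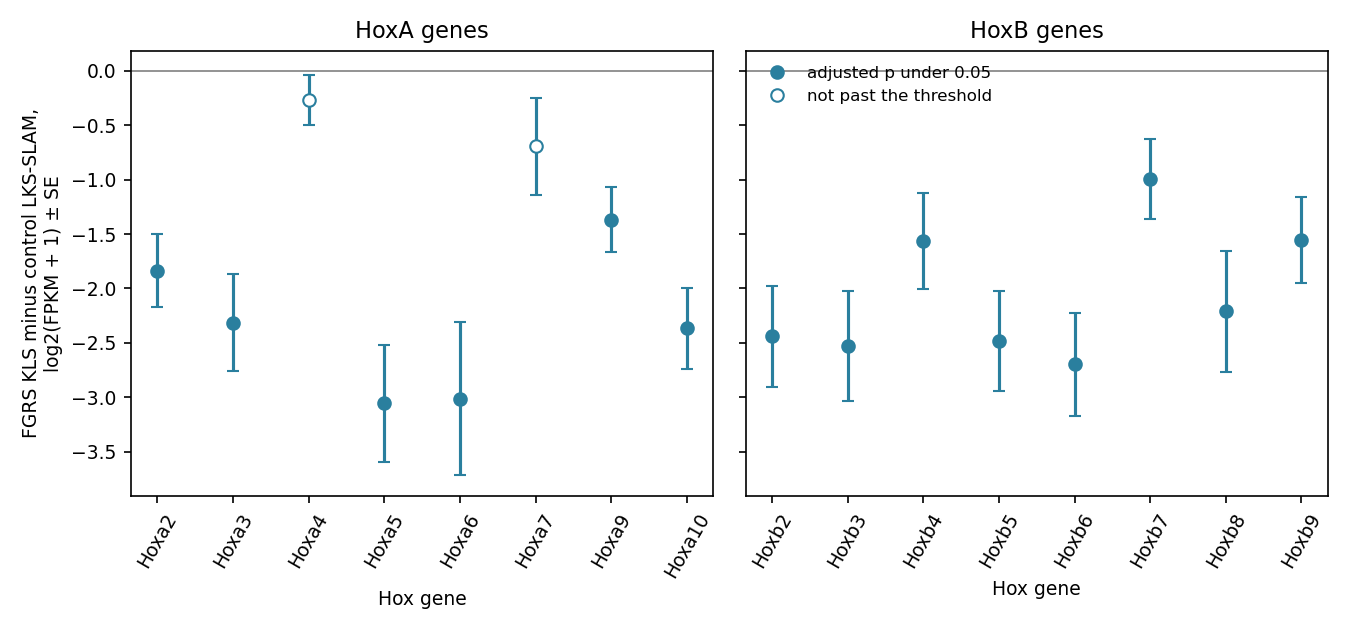
Difference between FGRS KLS and control LKS-SLAM cells on the log2(FPKM + 1) scale, with the SE from limma, for the same 16 genes. Filled points had an adjusted p under 0.05, and the open points are Hoxa4 and Hoxa7.

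The balance between clusters and within them differed in the FGRS cells. Summed HoxA over summed HoxB FPKM was 2.58, 2.99 and 2.83 in control libraries, 1.95, 2.59 and 1.13 in rEC LKS-SLAM libraries and 7.78, 5.87 and 5.25 in FGRS libraries. FGRS ratios were above all 6 LKS-SLAM ratios. The share kept by the 8 HoxA genes ranged from 5.68% to 73.1% of the control mean, and that kept by the 8 HoxB genes from 1.45% to 26.7%. Hoxa7 and Hoxa9 together made up 38.6% to 41.3% of summed HoxA FPKM in controls and 64.4%, 74.97% and 72.0% in FGRS libraries. In rEC LKS-SLAM library 2 they made up 64.2%, and in the other rEC LKS-SLAM libraries 41.9%. With 3 libraries a group these sums allow no exact test that could pass 0.05.

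Paralogue pairs showed the same shift for numbers 4 to 9 and not for 2 and 3. The Hoxa9 mean was 20.0 times the Hoxb9 mean in controls and 266 times in FGRS cells, where Hoxb9 was at 0.0147 to 0.123 FPKM. Hoxa6 over Hoxb6 went from 3.95 to 20.4, and Hoxa7 over Hoxb7 from 10.7 to 35.7. Hoxa5 over Hoxb5 was 5.24 and 9.49, and Hoxa4 over Hoxb4 was 0.174 and 0.477. Hoxa3 over Hoxb3 was 0.569 in controls and 0.517 in FGRS cells, and Hoxa2 over Hoxb2 was 0.369 and 0.216. These ratios of means carry no test.

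Beside these falls, summed FPKM of all members was 223, 212 and 176 in controls and 54.6, 33.2 and 41.8 in FGRS libraries 1, 2 and 3. The stem cell marker sum fell alongside, to 121 to 177 FPKM, and FGRS library 1 had the highest Hox sum and stem cell marker sum and the lowest macrophage marker sum of the 3. The part of the macrophage and stem cell content in the Hox differences was not tested.

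Against rEC LKS-SLAM cells, the engrafted counterpart, 14 of 39 members were lower in FGRS KLS cells and none higher, beside 27.8% of all genes tested that were lower and 17.2% that were higher. With untested genes counted as not called, these are 35.9% of the members, beside 17% of all symbols. Hoxb6 differed most, by -3.08 ± 0.47 (limma, adjusted p = 2.81e-05). Hoxb5 differed by -2.67 ± 0.46 and Hoxb2 by -2.46 ± 0.46. Hoxa2, Hoxb2, Hoxb5, Hoxb6 and Hoxc6 were lower without overlap, and the other called genes overlapped through rEC library 2. Hoxa4, Hoxa6, Hoxa7 and Hoxc9 were not called. The call rested on the spread pooled over all groups: fitted on these 2 groups alone, limma called 0 members, with 6 at an unadjusted p under 0.05. Without rEC LKS-SLAM library 2, 17 were called, and without library 3, 10. Both FGRS comparisons share the FGRS libraries, so they are not independent.

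By group means, marrow cells descended from endothelium had the Hox members of the controls on. In rEC LKS-SLAM cells 17 of 39 members had a mean of at least 1 FPKM, the 16 of the controls and Hoxc6. Counted in every library, 10 members reached 1 FPKM in rEC and 16 in control LKS-SLAM cells. In rEC library 2, Hoxa3, Hoxa4, Hoxa6, Hoxb7, Hoxb8 and Hoxb9 were under 1 FPKM. None of the 39 was called between rEC and control LKS-SLAM cells by limma, beside 1.32% of all genes, and 1 had an unadjusted p under 0.05. That was Hoxa6, with 14.9, 0.1101 and 29.4 FPKM in rEC libraries 1, 2 and 3 and a difference of -1.69 ± 0.70 (adjusted p = 0.402). The 3 rEC libraries differed widely among themselves, so a p that misses the threshold does not show that the groups are alike.

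In library 1 HoxA levels were near the controls and HoxB levels above them. Over the control mean, its 8 HoxA genes ranged from 0.585 to 1.66, with a median of 1.05, and its 8 HoxB genes from 0.977 to 2.09, with a median of 1.54. Hoxb8 stood at 8.14 FPKM there, Hoxb4 at 13.8 and Hoxa9 at 44.1. Library 3, from a secondary recipient, was higher still for HoxB, from 2.38 to 5.01 times the control mean with a median of 3.56. Its HoxA genes ranged from 1.12 to 2.63. It held 19.6 FPKM of Hoxb8, 31.3 of Hoxb4, 29.96 of Hoxb6, 24.1 of Hoxb5, 34.9 of Hoxb3 and 29.6 of Hoxb2, each the highest library of the series for its gene. Its Hoxa7 level was 38.3 FPKM, beside 17.8 in library 1 and 11.5 to 19.7 in controls. Hoxa5 stood at 33.6 FPKM in library 1 and 42.2 in library 3, Hoxa10 at 21.5 and 18.6, and Hoxa3 at 7.23 and 17.3. Both libraries lay above every control for 6 of the 8 HoxB genes and 3 of the 8 HoxA genes. The share of all genes that did so was not counted, so these counts only describe the members.

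Library 2, from clone 47G1, lay below every control for 16 of the 16 genes. Its HoxA genes ranged from 0.00433 to 0.450 of the control mean and its HoxB genes from 0.0208 to 0.300. Hoxa9 was at 12.1 FPKM, Hoxa7 at 3.43 and Hoxa10 at 3.40, while Hoxa5 was at 2.37, Hoxa3 at 0.917 and Hoxa6 at 0.1101. Among HoxB genes it held 2.70 FPKM of Hoxb4, 1.96 of Hoxb3, 1.70 of Hoxb2, 1.57 of Hoxb6, 1.23 of Hoxb5 and 0.0901 of Hoxb8. This is also the library with 134 FPKM of stem cell markers and 2222 FPKM of erythroid markers, and the part of that content was not tested. The share of all genes below every control in library 2 was not counted, so the 16 are not read as particular to Hox genes.

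With this library and rEC B library 1 left out, 7 members rose in rEC LKS-SLAM cells, beside 4.25% of all 14051 genes then tested that rose. With untested genes counted as not called, they are 17.9% of the members, beside 2.59% of all symbols. Hoxb8 was higher by 1.49 ± 0.20 (limma, adjusted p = 5.19e-05), Hoxb6 by 1.33 ± 0.26 (adjusted p = 0.00212) and Hoxb5 by 1.16 ± 0.22 (adjusted p = 0.00174). Hoxb4 rose by 1.14 ± 0.27 (adjusted p = 0.00860). Hoxb2 rose by 0.98 ± 0.22, Hoxb9 by 0.95 ± 0.18 and Hoxa2 by 0.93 ± 0.21, the single HoxA gene called. This fit leaves 2 rEC libraries and rests on the spread of the other groups. Without library 3 in place of library 2, 1 member was called, Hoxa6, which was then lower by -2.64 (adjusted p = 0.0314). Under array quality weights, which count variable libraries less, 9 members were called higher and 1 lower.

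**Figure D4:**
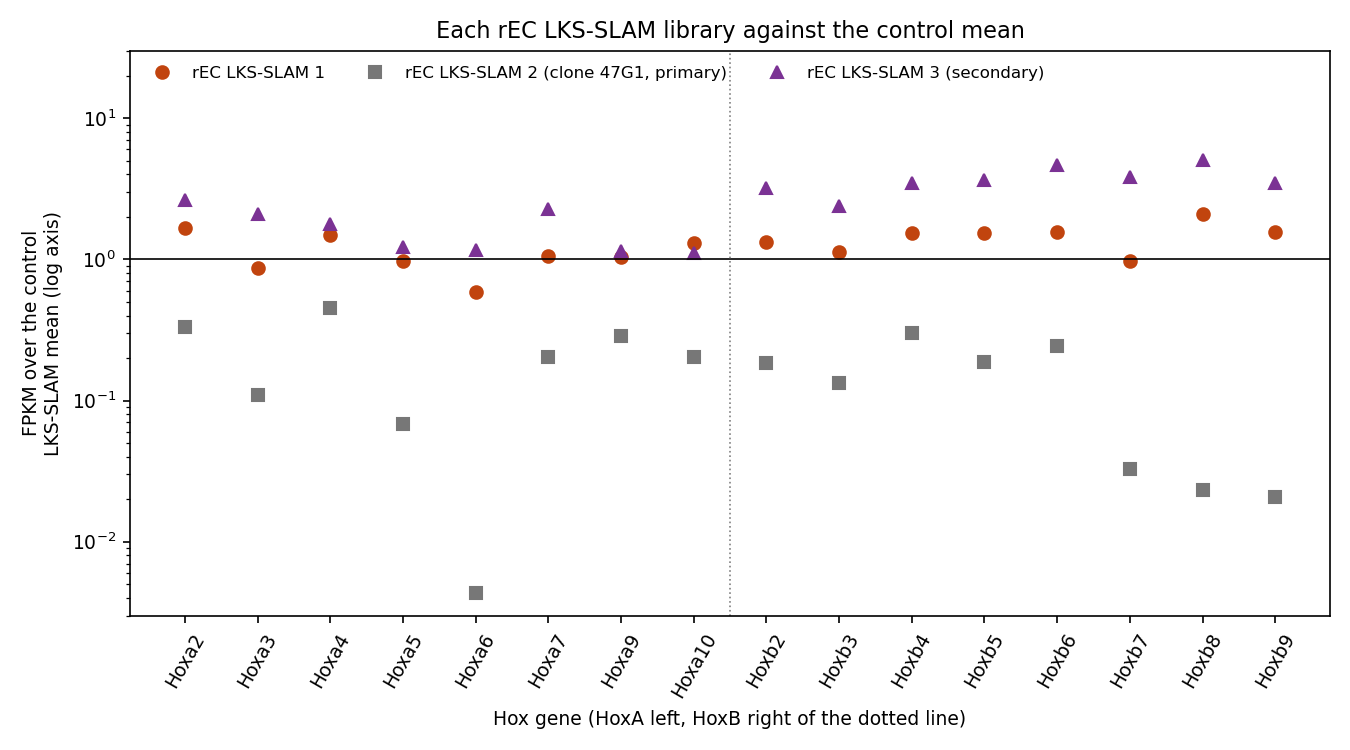
FPKM of each rEC LKS-SLAM library divided by the control LKS-SLAM mean (log axis, line at 1), for 8 HoxA and 8 HoxB genes. Library 2 lies below 1 throughout, library 3 above 1 throughout, and the HoxB points of library 3 lie between 2.38 and 5.01.

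Hox levels were far lower in sorted blood cells than in LKS-SLAM cells. Summed FPKM of all 39 members was 3.50 to 9.56 in the 20 blood libraries. Control LKS-SLAM cells were higher for 16 members against control myeloid cells, 17 against B, 16 against CD4 T and 17 against CD8 T cells. Of all genes tested, 49.1%, 36.7%, 32% and 33.2% were higher in these 4 comparisons. With untested genes counted as not called, 41% to 43.6% of the members were higher, beside 30%, 22.4%, 19.5% and 20.3% of all symbols. The filter on low values favours this direction. The 4 comparisons share the control LKS-SLAM libraries. Under quantile normalization Hoxa4, Hoxb7, Hoxb9, Hoxc6 and, against B cells, Hoxb4 lost calls. Hoxa9 differed from B cells by 5.44 ± 0.30 (limma, adjusted p = 3.17e-12), Hoxa5 by 5.08 ± 0.54 and Hoxa10 by 4.11 ± 0.37. Hoxa9 did not pass 0.0992 FPKM in any blood library, Hoxa10 did not pass 0.0246, and Hoxb8 was above 0 in 1 of 20, at 0.0194. Each thus had no blood level near its LKS-SLAM level.

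The same held within rEC cells, where 16, 17, 17 and 17 members were higher in LKS-SLAM than in myeloid, B, CD4 and CD8 cells. Of all genes tested, 49.8%, 32.2%, 31.1% and 33.9% were higher. With untested genes counted as not called, 41% to 43.6% of the members were higher, beside 30.4%, 19.7%, 19% and 20.7% of all symbols. Hoxc9 was the single member lower in LKS-SLAM cells, against CD8 T cells, by -0.70 ± 0.21 (adjusted p = 0.00748), beside 20.2% of genes lower there. Fitted on the compared groups alone, where the 3 unlike rEC LKS-SLAM libraries set the spread, 3, 5, 1 and 7 members were called.

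Hoxb4 was the member that stayed on in blood. It was at 1.75 FPKM or more in all 20 blood libraries, the one member at a mean of 1 FPKM or more in every blood group. Its mean was 4.29 ± 0.71 FPKM in control myeloid cells and 5.71 ± 2.62 in rEC myeloid cells (SD, n = 2 each). B cells had 2.87 ± 0.45 and 2.76 ± 0.65 (SD, n = 3 each). CD4 T cells had 2.04 ± 0.11 and 3.36 ± 0.29 (SD, n = 2 each), and CD8 T cells 2.18 ± 0.41 and 2.94 ± 0.37 (SD, n = 3 each). The order over control groups ran from LKS-SLAM cells (8.999 ± 1.64, SD, n = 3) through myeloid and B cells to T cells, and CD8 values overlapped with those of CD4 and B cells. Against control LKS-SLAM cells the difference passed the limma test for B cells (1.36 ± 0.44 higher in LKS-SLAM cells, adjusted p = 0.0121) and for both T cell types. It did not for myeloid cells (0.91 ± 0.49, adjusted p = 0.108), with an SE pooled over all groups. The control LKS-SLAM values (7.61 to 10.8 FPKM) still lay above both control myeloid values (3.78 and 4.79). FGRS cells, at 2.40 ± 0.64 (SD, n = 3), lay in the range of the lymphoid groups.

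Other members at low levels in blood were unevenly spread over cell types. In the 10 T cell libraries, Hoxa6 had a median of 0.861 FPKM and a highest value of 2.26, and Hoxa5 a median of 0.701 and a highest value of 1.30. The 10 myeloid and B libraries had medians of 0 for Hoxa6 and 0.112 for Hoxa5. Hoxa7 had medians of 0.369 and 0.0719 in the same sets. Control CD4 cells did not share this for Hoxa5 (0 and 0.113 FPKM) and Hoxa7 (0 and 0.190), which lay in the range of the myeloid and B libraries. Hoxa6 was at 0 and 0.585 FPKM in them. Hoxc9 had a median of 0.377 FPKM in T cells, with 0.0626 to 1.16, and was listed at 0 in 7 of the 10 myeloid and B libraries. Its one high value outside T cells, 1.01 FPKM, was in rEC B library 1, the library with T cell markers. Hoxb3 went the other way, with a median of 0.690 FPKM in myeloid and B libraries and 0.204 in T cells. Hoxb2 was listed at 0 in all 10 T cell libraries and reached 0.709 elsewhere in blood. Myeloid and lymphoid libraries were not tested against each other here.

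Between rEC and control blood cells no member was called in myeloid, B, CD4 or CD8 cells by limma, with 0 members at an unadjusted p under 0.05 in each. The background was 0.227%, 0%, 0.0213% and 1.13% of genes. Fitted on the compared groups alone, limma also called 0 members in each. In that fit 0, 2, 2 and 1 members had an unadjusted p under 0.05 in myeloid, B, CD4 and CD8 cells. The part of the B cell and myeloid markers of control CD8 libraries in the CD8 comparison was not tested. In CD4 T cells Hoxa5 was at 0 and 0.113 FPKM in controls and at 1.30 and 0.798 in rEC cells, a difference of 0.95 ± 0.66 (adjusted p = 1). Hoxb4 was at 2.12 and 1.96 FPKM in control and 3.16 and 3.56 in rEC CD4 cells, a difference of 0.52 ± 0.54 (adjusted p = 1). Neither pair of groups overlapped, and neither difference passed the test. The SE of both is pooled over all groups, the unlike rEC LKS-SLAM libraries among them, and is not the spread of the CD4 libraries. An F test of whether the difference between origins itself varied over the 5 cell types called 0 members, beside 0.277% of genes, with 0 at an unadjusted p under 0.05.

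Against control blood myeloid cells, FGRS KLS cells were higher for 5 of 39 members, beside 37.8% of all genes tested that were higher. With untested genes counted as not called, these are 12.8% of the members, beside 23.1% of all symbols. The count was below the background in this fit, whose SE is pooled over all groups. Fitted on these 2 groups alone, limma called 10 members, so the count depends on the fit and is not read as a result about the members. All 5 were HoxA genes. Hoxa9 was higher by 4.07 ± 0.33 (limma, adjusted p = 1.47e-09) and Hoxa7 by 3.32 ± 0.50 (adjusted p = 6.26e-06). Hoxa5, Hoxa10 and Hoxa4 were higher by 1.98 ± 0.60, 1.74 ± 0.42 and 1.02 ± 0.26. No HoxB gene passed the test in this fit, and Hoxb4 had a difference of -0.64 ± 0.49 (adjusted p = 0.283). Hoxb2 and Hoxb5 to Hoxb9 lay above both myeloid libraries without overlap, at low levels. Other fits called 4 to 12 members.

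**Figure D5:**
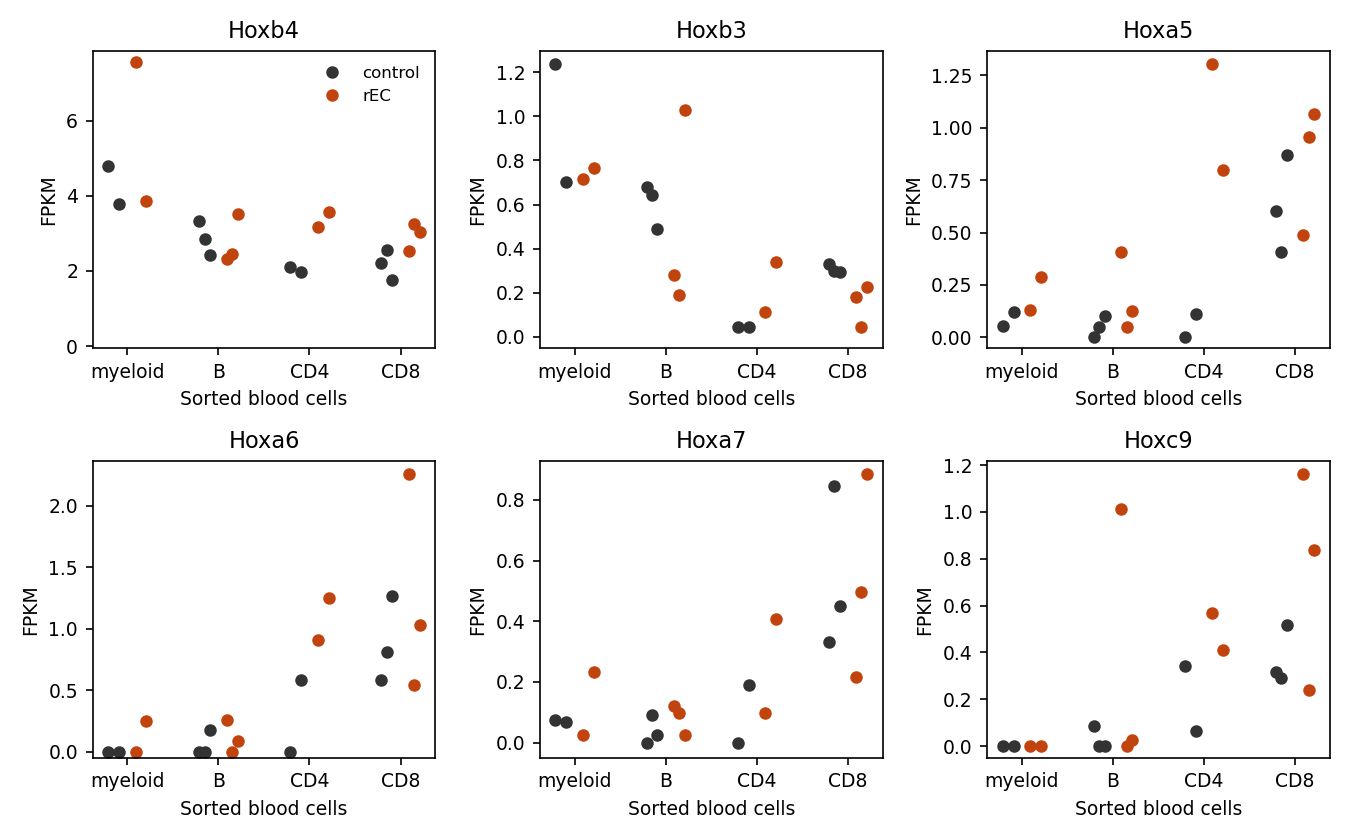
FPKM of 6 Hox members in control and rEC myeloid, B, CD4 T and CD8 T libraries, 1 point per library, each panel with its own linear axis. Hoxb4 is at 1.75 or more throughout, and Hoxa5, Hoxa6, Hoxa7 and Hoxc9 are mostly highest in T cells. Control CD4 libraries are in the range of the myeloid and B libraries for Hoxa5 and Hoxa7.

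Genes that work with the clusters were described by list. Of 9 PBX, MEIS and PREP cofactors 6 fell in FGRS against control LKS-SLAM cells and none rose, beside 31.7% of all genes tested that fell and 17.1% that rose. Their median was -1.42 over the 8 tested, beside -0.19 for all genes. Meis1, the partner of Hoxa9, went from 90.9, 76.9 and 72.5 FPKM to 16.9, 6.02 and 7.21 and fell by 2.998 ± 0.43 (limma, adjusted p = 1.26e-05). Meis3 fell by 1.59 ± 0.64 and Pbx3 by 1.45 ± 0.45. Cdx1, Cdx2 and Cdx4, activators of Hox genes in the embryo, did not reach the filter in these cells, so 0 of 3 were tested.

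Among 13 MLL complex and associated genes 5 fell and 1 rose, with a median of -0.37. Mllt3, an elongation factor subunit that maintains stem cells, fell by 2.67 ± 0.39 (limma, adjusted p = 1.73e-05). Kmt2a, the MLL methyltransferase itself, fell by 1.65 ± 0.34 (adjusted p = 0.000516). Ash1l fell by 1.18 ± 0.24, and Dpy30, a core subunit shared by these complexes, rose by 1.12 ± 0.29 (adjusted p = 0.00336). Of 14 polycomb genes 7 fell and 2 rose, with a median of -0.41. Cbx7, a chromodomain subunit, fell by 2.84 ± 0.42 (adjusted p = 1.65e-05). It was at 31.6 to 36.0 FPKM in control LKS-SLAM cells and higher, at 139.7 to 199.7, in control B and T cells. Ezh1, a histone H3K27 methyltransferase, fell by 1.66 ± 0.33, Phc1 by 1.41 ± 0.34 and Cbx8 by 1.09 ± 0.22. Eed and Jarid2 rose by 0.48 ± 0.17 and 0.54 ± 0.17. Of the demethylases Kdm6a and Kdm6b, which remove the polycomb mark, Kdm6b fell by 0.92 ± 0.31 (adjusted p = 0.0170). Activating and silencing regulators thus both held members that fell, beside the 31.7% of all genes that did.

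Of 9 noncoding transcripts of the clusters that were measured, 4 were tested and 2 fell in FGRS cells, Hoxaas3 by 2.49 ± 0.48 (limma, adjusted p = 0.000277) and Hoxaas2 by 1.16 ± 0.30 (adjusted p = 0.00361). Both share HoxA exon bases, so their values are uncertain. Hotairm1, an RNA of the HoxA cluster, was at 18.0, 12.5 and 23.3 FPKM in control LKS-SLAM libraries. It was at 11.9, 7.56 and 76.0 in rEC LKS-SLAM and 1.81, 42.1 and 63.7 in FGRS libraries. These groups overlapped, and FGRS library 1 lay apart from the other FGRS libraries. In control blood it was at 0 and 4.61 FPKM in myeloid and 0 to 1.21 in B cells. Control CD4 T cells had 12.8 and 34.2 FPKM and control CD8 T cells 15.85 to 26.0. In rEC blood Hotairm1 was at 18.85 and 37.16 FPKM in myeloid cells, above both controls. It was at 29.04, 0 and 0 in rEC B libraries 1, 2 and 3, of which library 1 carried T cell markers. rEC CD4 T cells had 42.86 and 34.79 FPKM and rEC CD8 T cells 14.57 to 48.45. Of 14 genes beside the clusters 2 rose and 1 fell: Snf8 by 0.89 ± 0.20 and Mtx2 by 0.56 ± 0.21 rose, and Smug1 fell by 1.11 ± 0.18. Their median of 0.02 stood beside -0.19 for all genes. In none of the 7 lists was a gene called between rEC and control LKS-SLAM cells.

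Control LKS-SLAM against myeloid cells gave 4 higher and 2 lower of the 9 cofactors, 9 higher of the 13 MLL genes, 7 higher and 2 lower of the 14 polycomb genes and 4 higher of the 9 noncoding transcripts, beside the 49.1% of all genes tested that were higher and 17.4% that were lower. Against B cells the cofactors gave the same counts, the MLL genes 4 higher and 3 lower, and the polycomb genes 2 higher and 3 lower, beside 36.7% of all genes tested that were higher and 18.9% that were lower. The 4 MLL and 2 polycomb genes that were higher are shares of 30.8% and 14.3%, below that background.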

How the data were processed

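RNA was measured in 30 libraries with non-stranded, poly-A selected preparations and 51 bp paired-end reads, per the labels' protocols. The authors deposited 1 table of FPKM values for gene symbols; per the submitters' processing notes, TopHat2 2.1.0 and Cufflinks 2.2.1 were used with the mm10 build, besides Trimmomatic 0.36, FastQC 0.11.5 and bcl2fastq 2.17. Normalization between libraries is not given in the sources used here. Groups follow the titles, and 1 B220+ library of clone 47G1, annotated as wild type, entered no comparison.

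Differences were fitted with limma 3.58.1 (R 4.3.3) on log2(FPKM + 1), in 1 model of 29 libraries and 11 group means with an intensity trend and 18 residual degrees of freedom, two-sided except the F test. The test covered the 14083 genes at 1 FPKM or more in 2 libraries, with Benjamini-Hochberg adjustment per comparison. On simulated data for FGRS against control LKS-SLAM cells (14083 genes) log2 changes of 1 and 2 were recovered for 65% and 92% of 100 genes each. The changed genes had a control mean above 2 on the log2(FPKM + 1) scale, and each gene had the same variance in all groups. The rates thus do not cover lower members such as Hoxb7 and Hoxc6, or groups with a wider spread. Members, lists, tests and alternatives were chosen with earlier results of these data known. By the rule for naming, members with a group mean of at least 1 FPKM or a call are given values, the 12 highest library by library, and the 4 largest called changes per list are named. Coordinates are GENCODE M21, promoters RefSeq GRCm38.p6. Some genes named by this rule are left out of the text.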

Additional observations from a re-analysis of the deposited data

Results flagged for a closer look

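The B220+ library of clone 47G1 whose labels give no clear group entered no comparison. In it 8 members were above all 3 control B cell libraries, all at low levels: Hoxb6 at 0.358 FPKM, Hoxb7 at 0.334, Hoxa5 at 0.186, Hoxa4 at 0.134, Hoxa3 at 0.133, Hoxd11 at 0.0983, Hoxd4 at 0.0566 and Hoxc8 at 0.0410. The share of all genes above all 3 controls in this library was not counted, so the 8 are not read as particular to Hox genes. With 1 library there is no test.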

How the results depend on the processing

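Of the values of single members under other settings, 2544 kept their direction and side of the threshold, 141 lost a call, 24 gained one and 51 changed sign. The sign changes were all in rEC against control LKS-SLAM cells, where no member was called. There, pseudocounts of 0.1 gave -0.10 (Hoxb2), -0.48 (Hoxb7), -0.35 (Hoxb8) and -0.51 (Hoxb9), and 0.5 gave -0.0375 (Hoxb2), -0.0539 (Hoxb7) and -0.0388 (Hoxb9). Array quality weights gave 0.0458 (Hoxa9), 0.30 (Hoxa10), 0.0749 (Hoxb3), -0.11 (Hoxb7) and -0.0113 (Hoxc9). Without the secondary libraries the values were -0.18 (Hoxa2), -0.10 (Hoxa4), -0.77 (Hoxb2), -0.42 (Hoxb4), -0.59 (Hoxb5), -0.46 (Hoxb6), -0.63 (Hoxb7), -0.63 (Hoxb8), -0.55 (Hoxb9) and -0.0129 (Hoxc9). Leaving out 1 library at a time ranged from -0.18 to 0.93 (Hoxa2), -1.22 to 0.40 (Hoxa3), -0.10 to 0.47 (Hoxa4), -1.72 to 0.12 (Hoxa5), -0.93 to 0.65 (Hoxa7), -0.83 to 0.12 (Hoxa9), -0.91 to 0.27 (Hoxa10), -0.77 to 0.98 (Hoxb2), -1.09 to 0.71 (Hoxb3), -0.42 to 1.14 (Hoxb4), -0.59 to 1.16 (Hoxb5), -0.46 to 1.33 (Hoxb6), -0.63 to 0.74 (Hoxb7), -0.63 to 1.49 (Hoxb8), -0.55 to 0.95 (Hoxb9) and -0.0129 to 0.0822 (Hoxc9). The cause was not tested. Counts of called members for rEC against control LKS-SLAM cells went from 0 to 10 with array weights, and from 0 to 7 when leaving out libraries. For the CD4 comparison of origins the count went from 0 to 1 with array weights, and for the F test from 0 to 4, or from 0 to 1 without a library. FGRS against control myeloid cells went from 5 to 9 (pseudocount of 0.1), 12 (array weights), 10 (these groups alone) and 9 (without rEC LKS-SLAM library 2 and rEC B library 1). Fitted on the compared groups alone, rEC LKS-SLAM cells against rEC myeloid, B, CD4 and CD8 cells gave 3, 5, 1 and 7 and FGRS against rEC LKS-SLAM cells 0. The count of members at 1 FPKM in rEC LKS-SLAM cells was 10 when every library had to reach it, and 1 in rEC CD4 and rEC CD8 cells; a mean of 2 FPKM also gave 1 in both, and a mean of 0.5 gave 2 (control myeloid), 3 (rEC myeloid), 2 (control B), 2 (rEC B), 4 (control CD8) and 5 (rEC CD8). Quantile normalization moved the median of all genes from 0.61 to 0.03 (LKS-SLAM against myeloid cells, controls) and from -0.19 to 0.03 (FGRS against control), where genes called higher and lower went from 2411 and 4459 to 2944 and 2864. Control LKS-SLAM cells against myeloid cells went from 6911 higher and 2453 lower genes to 4308 and 4110, against B cells from 5175 and 2657 to 3584 and 4552, against CD4 cells from 4502 and 2614 to 3365 and 4101, and against CD8 cells from 4679 and 2390 to 3410 and 4194. FGRS against control myeloid cells went from 5321 and 2860 to 4051 and 3970. No called member changed sign under this normalization. Replicate numbers carry no stated pairing: 48 same-numbered pairs had a median correlation of deviations of 0.006, with 6 over 0.1. With the replicate block FGRS against control myeloid cells gave 11 members, FGRS against control LKS-SLAM cells 15, and LKS-SLAM against control blood cells 16 in each of 4 comparisons.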
